A study of Mus musculus with 12 samples.

Results

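The Hox genes of the mouse colon were followed across 11 bulk RNA libraries. Members were all genes whose symbol is Hoxa, Hoxb, Hoxc or Hoxd followed by a number. The table held 40 such gene identifiers with 39 symbols and 87 transcripts, among 35688 genes in all. Hoxd4 appears under 2 identifiers. Each mouse was 2 weeks old and had no functional Il10, which encodes interleukin 10, a cytokine that restrains inflammation. Of the 11 mice, 5 were Il10-/- and 6 were Il10-/- Tnfr1-/-, lacking also TNF receptor 1, the product of Tnfrsf1a. Mice without Il10 can develop colitis by themselves, and no colon with intact Il10 was among the samples. RNA came from dissected colon, and the summed level of 10 smooth muscle genes ran from 185 to 8021 between libraries. The labels do not record which length of colon entered each library, nor litter or sex, so p-values measure the spread between these samples. In such bulk RNA, fewer cells of a type and less RNA per cell cannot be told apart.

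Hox genes encode homeodomain transcription factors and lie in 4 clusters, HoxA to HoxD, in which genes of like position form 13 paralog groups. Along the body axis and the gut, low-numbered genes are used further forward and high-numbered genes only towards the rear, so the set of Hox genes a gut segment transcribes is a record of its position. The group 13 genes act in the hindgut, cloaca and genital region, and Hoxb13 remains on in the distal colon of adults. Here paralog groups 1 to 5 are called anterior, 6 to 8 central and 9 to 13 posterior. Values are abundances divided by transcript length, on the scale the authors deposited, summed over the transcripts of a gene. The sequencing depth is unknown. On build mm10, HoxA lies on chromosome 6, HoxB on chromosome 11, HoxC on chromosome 15 and HoxD on chromosome 2. Annotated Hoxa3 spans Hoxa4 to Hoxa6, Hoxd3 overlaps Hoxd4, and Hoxc5 spans Hoxc6, Hoxc8 and Hoxc9 and overlaps Hoxc10, so the split of signal within these sets is uncertain.

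A filter for a value over 1 in at least 5 samples kept 26 of the 40 Hox identifiers and 13561 genes in all. The 26 were 10 of 11 HoxA, 9 of 10 HoxB, 7 of 10 HoxD and 0 of 9 HoxC genes. The 14 under the filter included Hoxd12, Hoxd13 and the 9 HoxC genes. In Il10-/- colons summed Hox abundance was 387 ± 55.2 (SD, n = 5), and it was 316 ± 41.5 (SD, n = 6) where Tnfr1 was also missing. HoxA genes made up 51.6% ± 11.5 (SD, n = 5) of it in Il10-/- colons and 40.4% ± 13.2 (SD, n = 6) in Il10-/- Tnfr1-/- colons. The HoxB share was 37.8% ± 8.48 (SD, n = 5) and 49.6% ± 13.2 (SD, n = 6) in the same order, and the ranges of the genotypes overlapped for both clusters.

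HoxC was nearly silent. Its share of summed Hox abundance lay between 0.0293% and 1.08% in the 11 libraries. Hoxc12 was listed at 0 in all of them, and Hoxc13 was above 0 in 1 library, at 0.0168. The highest HoxC mean was that of Hoxc4, 0.651, and its highest value was 2.63 in Il10-/- replicate 3. Hoxc6 averaged 0.178 and Hoxc10 0.251 over all libraries, and neither exceeded 0.762 in any of them.

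In HoxA and HoxB, abundance peaked in central and posterior genes. Means over all 11 libraries were 41.4 for Hoxb9, 38.1 for Hoxa9, 38.1 for Hoxa7, 33.3 for Hoxa10, 28.4 for Hoxb13 and 23.7 for Hoxb6. Hoxa5, which acts in foregut and gut patterning, averaged 17.5 and was the most abundant anterior HoxA gene. Hoxb5, which is used in enteric neural crest, averaged 14.9. In HoxD the anterior Hoxd4 led: the most abundant genes were Hoxd4, at 7.77 for its main identifier, Hoxd8 at 5.88 and Hoxd13 at 5.71, but the Hoxd13 mean came almost wholly from 1 library.

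The Hox genes differed far more between single colons than most genes did. On the log2(value + 0.5) scale, the median range over the 11 libraries was 3.20 for the 26 tested Hox genes and 1.43 for all 13561 tested genes. A range over 3 was found in 15 of 26 Hox genes (57.7%) and in 1327 of all tested genes (9.79%). Without Il10-/- replicate 1, the median ranges were 2.60 and 1.33, and the counts over 3 were 10 of 26 (38.5%) and 1140 (8.41%). Ranges were smallest for Hoxa3 (1.36), Hoxa2 (1.53) and Hoxb9 (1.79), and largest for Hoxb13 (8.05), Hoxb6 (5.96) and Hoxb7 (5.45). Hoxb9 and Hoxb13, both posterior genes of 1 cluster, were thus among the steadiest and the most variable members.

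**Figure D1:**
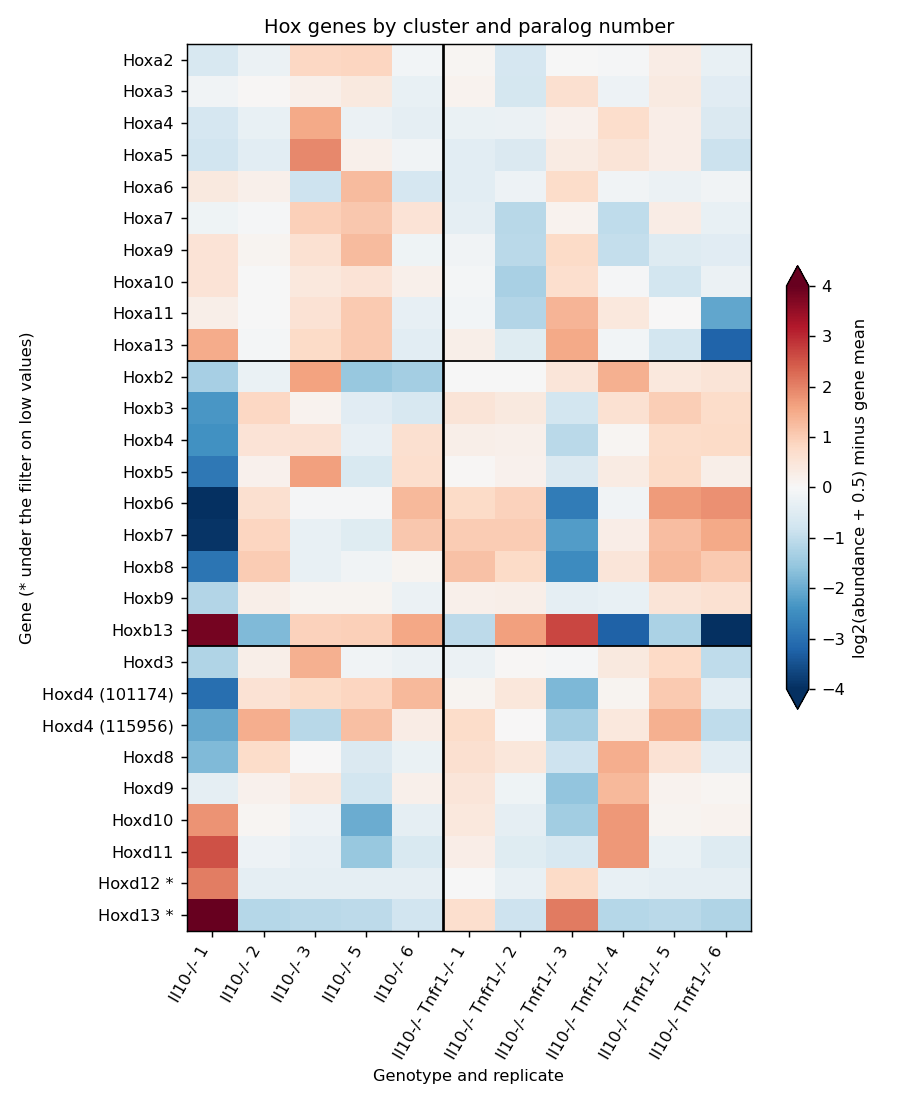
Centred log2(abundance + 0.5) of the 26 tested Hox identifiers and of Hoxd12 and Hoxd13 (asterisk, under the filter), one row a gene and one column a colon; red is above and blue below the gene's mean over the 11 libraries, and the vertical line parts the genotypes. Il10-/- replicate 1 is blue from Hoxb2 to Hoxd8 except for a red Hoxb13, red again from Hoxd10 to Hoxd13, and Il10-/- Tnfr1-/- replicate 3 has a paler form of the HoxB part of that pattern.

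Of the group 13 genes, Hoxa13, Hoxb13 and Hoxd13 were each highest in the same pair of colons. Hoxb13, on chromosome 11 from 96194316 to 96197447, was 141 in Il10-/- replicate 1 and 2.42, 18.7, 18.9 and 28.8 in replicates 2, 3, 5 and 6. Over the 6 Il10-/- Tnfr1-/- colons it had a lowest value of 0.0332 in replicate 6, a median of 4.05 and a highest value of 63.4 in replicate 3, followed by 30.5 in replicate 2. Each genotype thus had its own highest library. The genotypes overlapped between 2.42 and 63.4. Il10-/- replicate 1 lay above that stretch, and Il10-/- Tnfr1-/- replicates 4 and 6, at 0.556 and 0.0332, lay below it.

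Hoxd13, a regulator of limb, hindgut and genital patterning, was on in fewer colons than Hoxb13. It was 56.0 in Il10-/- replicate 1 and 0.0519, 0.0763, 0.0794 and 0.208 in the other 4 Il10-/- colons. In Il10-/- Tnfr1-/- colons the lowest value was 0.0291, the median 0.122 and the highest 4.65, again in replicate 3, followed by 1.41 in replicate 1. Its neighbour Hoxd12 was 2.17 in Il10-/- replicate 1, 0.591 in Il10-/- Tnfr1-/- replicate 3 and at most 0.13 elsewhere.

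Hoxa13, which acts with Hoxd13 in the hindgut and genital tubercle, was spread more evenly. It was 24.9, 8.09, 14.9, 18.5 and 6.34 in Il10-/- replicates 1, 2, 3, 5 and 6. The Il10-/- Tnfr1-/- colons ran from 0.496 in replicate 6 over a median of 6.99 to 25.4 in replicate 3. The same library thus headed its genotype for Hoxa13, Hoxb13 and Hoxd13, and Il10-/- Tnfr1-/- replicate 6 was lowest of all 11 for each of these 3 genes.

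Summed over Hoxa13, Hoxb13, Hoxc13 and Hoxd13, group 13 made up 51.7% of Hox abundance in Il10-/- replicate 1, 26.0% in Il10-/- Tnfr1-/- replicate 3 and 0.176% in Il10-/- Tnfr1-/- replicate 6. The median share was 9.34% over Il10-/- and 4.18% over Il10-/- Tnfr1-/- colons.

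The middle of the HoxB cluster ran the other way. Hoxb6 was 0.373 in Il10-/- replicate 1 and 23.4, 14.1, 14.2 and 36.8 in replicates 2, 3, 5 and 6. In Il10-/- Tnfr1-/- colons it was lowest in replicate 3 at 1.67, with a median of 26.8 and a highest value of 54.0 in replicate 6. The libraries with most Hoxb13 in each genotype thus had the least Hoxb6, and the library with least Hoxb13 had the most.

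Hoxb7, Hoxb8, Hoxb4, Hoxb3 and Hoxb5 had their lowest value in the same Il10-/- colon. Hoxb7 was 0.407 there and 9.28 to 28.5 in the other Il10-/- colons, and 2.45 in Il10-/- Tnfr1-/- replicate 3 against 39.1 in replicate 6. Hoxb8 was 0.247 in Il10-/- replicate 1, 4.17 to 11.03 in the other Il10-/- colons and 0.503 in Il10-/- Tnfr1-/- replicate 3. Together Hoxb2 to Hoxb8 were 0.925% of Hox abundance in Il10-/- replicate 1, 5.77% in Il10-/- Tnfr1-/- replicate 3 and 44.0% in Il10-/- Tnfr1-/- replicate 6. Hoxb9, next to Hoxb8 in the cluster, held 17.3 in Il10-/- replicate 1 and 30.5 to 61.0 in the other 10 libraries, so it dropped far less than its neighbours.

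HoxD was split within the cluster in the same colon. Hoxd4, under its main identifier, was 0.291 in Il10-/- replicate 1 and 8.98, 10.5, 11.2 and 15.1 in the other Il10-/- colons, and it ran from 1.35 in replicate 3 over a median of 6.38 to 12.7 in Il10-/- Tnfr1-/- colons. Hoxd8 was 1.10 in Il10-/- replicate 1 and 3.12 to 8.44 in the other Il10-/- colons. Hoxd10 and Hoxd11 were instead highest there, at 11.9 and 11.5. Il10-/- Tnfr1-/- replicate 4 came next for both, with 11.4 and 6.24, but its Hoxd13 was 0.0465 and its Hoxb13 0.556. High Hoxd10 and Hoxd11 therefore did not always come with high group 13 values.

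**Figure D2:**
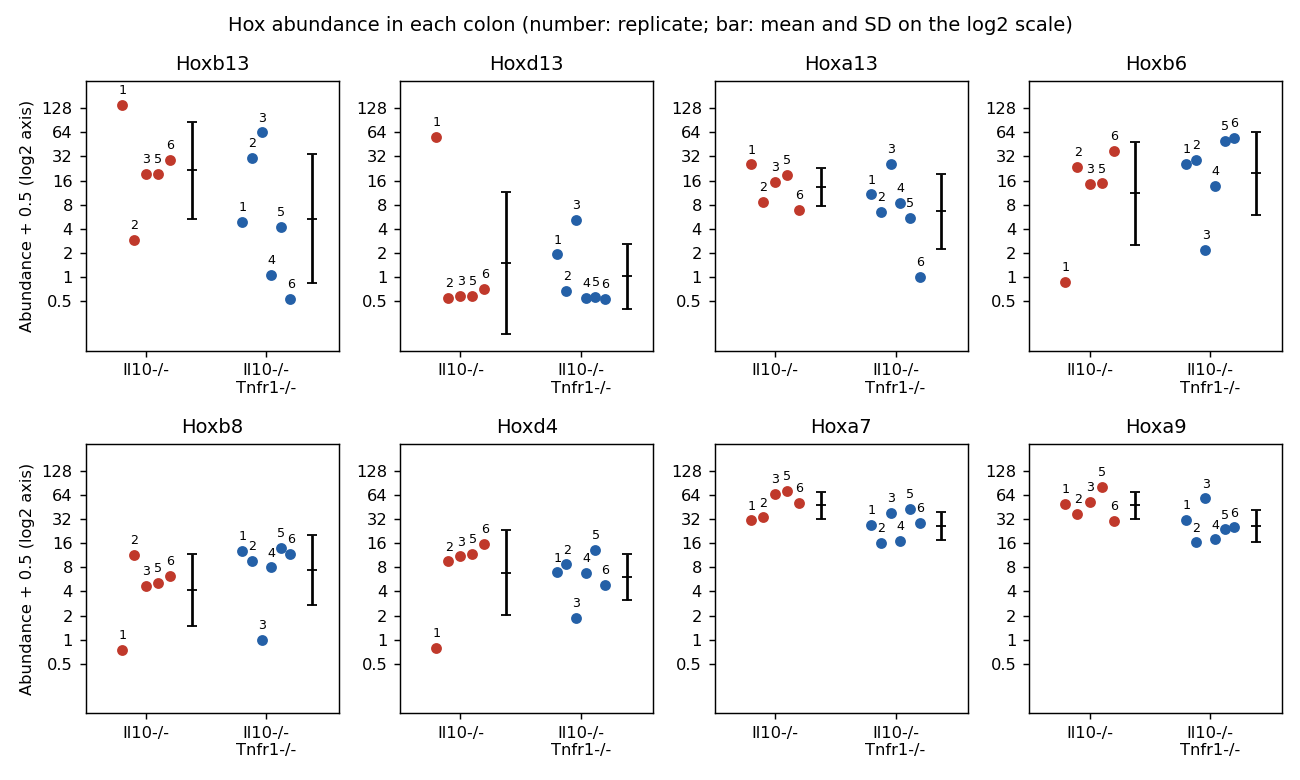
Abundance + 0.5 on a log2 axis for 8 Hox genes in each of 5 Il10-/- (red) and 6 Il10-/- Tnfr1-/- (blue) colons, numbered by replicate; the black bar is the mean and SD on that log2 scale. Replicate 1 of Il10-/- and replicate 3 of Il10-/- Tnfr1-/- top the Hoxb13, Hoxd13 and Hoxa13 panels and lie lowest in the Hoxb6, Hoxb8 and Hoxd4 panels, while Hoxa7 and Hoxa9 vary less.

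RefSeq starts for this opposed group are shown for Hoxd13 and Hoxa13, which were highest in the 2 colons just named, and for Hoxb8, which was lowest in them. Each sequence runs 5′ to 3′ on the gene's strand from 250 bases before to 50 bases after the start, on build GRCm38.p6. Hoxd13 lies at chr2:74667975-74668274 on the plus strand, Hoxa13 at chr6:52260831-52261130 on the minus strand and Hoxb8 at chr11:96281655-96281954 on the plus strand. Capitals mark CAATAAA, a motif bound by CDX and HOX13 proteins, or TCGTAAA, a HOX13 motif, searched on both strands.
Hoxd13: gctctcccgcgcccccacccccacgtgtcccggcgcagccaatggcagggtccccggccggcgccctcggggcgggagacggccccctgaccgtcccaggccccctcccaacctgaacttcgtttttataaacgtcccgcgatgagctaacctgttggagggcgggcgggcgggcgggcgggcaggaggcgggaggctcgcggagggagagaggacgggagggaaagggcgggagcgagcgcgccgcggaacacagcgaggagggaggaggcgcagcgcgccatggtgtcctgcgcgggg
Hoxa13: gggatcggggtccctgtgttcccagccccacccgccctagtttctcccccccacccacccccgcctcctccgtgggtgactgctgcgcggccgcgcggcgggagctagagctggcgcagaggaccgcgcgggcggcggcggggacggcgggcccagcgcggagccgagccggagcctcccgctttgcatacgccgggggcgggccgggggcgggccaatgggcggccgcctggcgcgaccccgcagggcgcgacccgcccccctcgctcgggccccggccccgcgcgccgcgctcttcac
Hoxb8: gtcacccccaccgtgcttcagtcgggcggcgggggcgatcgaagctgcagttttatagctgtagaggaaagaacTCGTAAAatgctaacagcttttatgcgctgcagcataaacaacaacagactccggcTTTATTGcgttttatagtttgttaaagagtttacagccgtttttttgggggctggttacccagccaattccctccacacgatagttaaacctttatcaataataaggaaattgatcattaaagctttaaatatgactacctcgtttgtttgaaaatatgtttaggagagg

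The start of Hoxb8 held both motifs, TCGTAAA on the gene's strand from base 75 and CAATAAA on the other strand from base 131, and those of Hoxd13 and Hoxa13 held neither. Of 32851 windows of this length, 4.60% held CAATAAA and 0.597% held TCGTAAA. RefSeq windows were found for 22 of the 39 Hox symbols, 24 windows in all, and 2 held each motif (Hoxb8 and Hoxd4 for CAATAAA, Hoxb8 and Hoxd11 for TCGTAAA). The windows also differed in composition, with 74.3% G or C for Hoxd13, 81.0% for Hoxa13 and 42.3% for Hoxb8 against a median of 52.7% over all windows. A match describes the letters and is not evidence of binding.

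A single number per colon was formed as the mean centred log2 value of the 9 tested posterior genes minus that of the 11 tested anterior identifiers. Hoxd4 counts 2 times among the latter, and both its identifiers were lowest in Il10-/- replicate 1, at 0.291 and 0.0613. It was 2.64 in Il10-/- replicate 1, and between -0.50 and 0.07 in the other Il10-/- colons. In Il10-/- Tnfr1-/- colons it was 0.70 in replicate 3 and between -0.97 (replicate 5) and -0.06 (replicate 1) in the rest. The means were 0.36 ± 1.30 (SD, n = 5) and -0.30 ± 0.61 (SD, n = 6). The difference of -0.66 ± 0.59 (SE) is close to its own error, and it was -0.09 without Il10-/- replicate 1. No p is given for a score over chosen genes. The order is not a simple shift of the whole series of paralogs, since the central genes of Il10-/- replicate 1 averaged -2.09, below its anterior genes at -1.58.

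**Figure D3:**
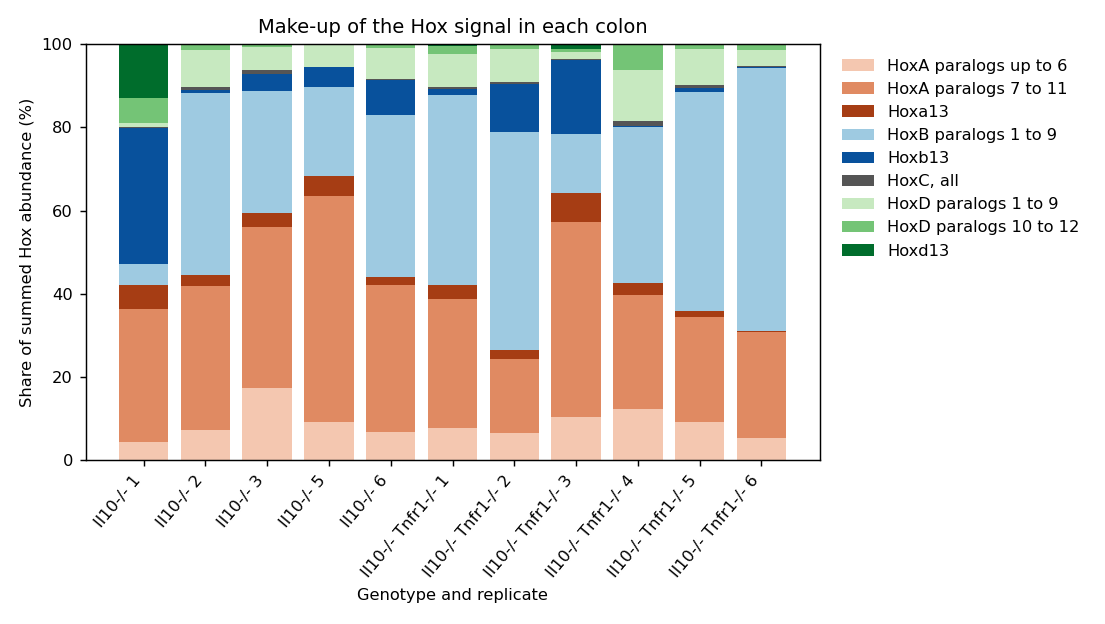
Stacked shares (%) of summed Hox abundance by cluster and paralog range in each of the 11 colons. Dark blue (Hoxb13) and dark green (Hoxd13) are widest in Il10-/- replicate 1, where group 13 is 51.7% of the total, while pale blue (Hoxb1 to Hoxb9) fills most of the column of Il10-/- Tnfr1-/- replicate 6.

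The Hox genes stood farther from the median library than genes in general did in 10 of the 11 colons, and farthest in Il10-/- replicate 1. It held the lowest value for 12 of the 26 tested Hox genes (46.2%) and the highest for 3 (11.5%), against 13.2% and 17.2% of all tested genes. Its median absolute distance from the median library was 1.44 on the log2 scale for Hox genes and 0.38 for all tested genes. The same distances were 0.82 and 0.24 in Il10-/- replicate 5 and 0.47 and 0.14 in Il10-/- Tnfr1-/- replicate 5. Il10-/- replicate 6 was the farthest from the median library over all genes, at 0.49, with 0.33 for its Hox genes.

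Markers of colon segment were set beside Hoxb13 and Hoxb6 over the 11 libraries. These 24 pairs were added after seeing the data, with the tested Hox genes of largest range. Their p-values therefore describe these libraries and do not test a question set beforehand. Atp12a, the nongastric proton-potassium pump of the distal colon, was 498 in Il10-/- replicate 1, 163 in Il10-/- Tnfr1-/- replicate 3 and 0.248 in Il10-/- Tnfr1-/- replicate 6. Across libraries it went with Hoxb13, with r = 0.938 (permutation p = 4.0e-05, adjusted 0.00112) and rho = 0.936 (permutation p = 6.0e-05, adjusted 0.00168) over 11 samples. Without the 2 samples farthest from the median Hoxb13, which were Il10-/- Tnfr1-/- replicates 4 and 6, r was 0.943. Without the colons highest in both genes, Il10-/- replicate 1 and Il10-/- Tnfr1-/- replicate 3, it was 0.902, and with genotype means removed it was 0.924.

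Cyp2c55, a cytochrome P450 used here as a proximal colon marker, was 2.19 in Il10-/- replicate 1 and 4262 in Il10-/- Tnfr1-/- replicate 6. It went with Hoxb6, with r = 0.867 (permutation p = 0.00061, adjusted 0.00497) and rho = 0.818 (permutation p = 0.00333, adjusted 0.0466). Without the 2 samples farthest from the median Hoxb6, which were Il10-/- replicate 1 and Il10-/- Tnfr1-/- replicate 3, r was 0.762. The other gene listed for the proximal colon, Aqp4, a water channel, ran the opposite way. It was highest in Il10-/- replicate 1 at 221 and lowest in Il10-/- Tnfr1-/- replicate 6 at 23.3, and with Hoxb6 it had r = -0.803 (adjusted permutation p = 0.0169; -0.663 without the same 2 samples) and rho = -0.727 (adjusted permutation p = 0.0759). The 2 proximal genes thus did not move together. The pairs of Hoxb13 with Atp12a and Hoxb6 with Cyp2c55 were the 2 of 28 pairs whose rho passed an adjusted p of 0.05, while r passed for 13.

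**Figure D4:**
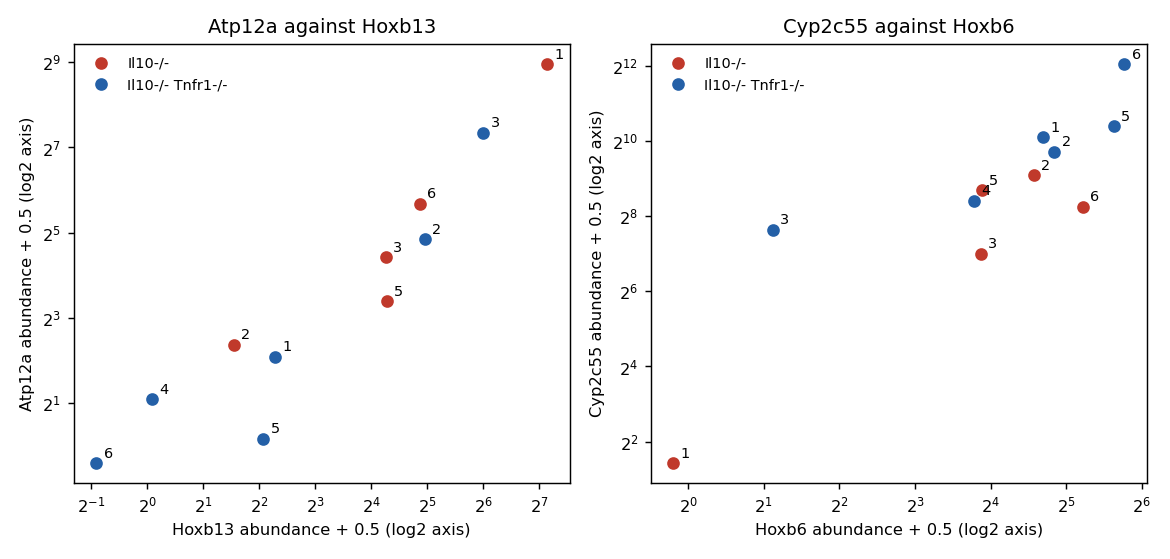
Abundance + 0.5 of Atp12a against Hoxb13 (left) and of Cyp2c55 against Hoxb6 (right) in 11 colons, both axes log2, red Il10-/- and blue Il10-/- Tnfr1-/-, numbered by replicate. The points of both genotypes fall along 1 rising band in the left panel (r = 0.938), and in the right panel Il10-/- replicate 1 lies far below the rest.

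Several other relations of Hoxb6 rested largely on the same pair of colons. The r between Hoxb6 and Slc10a2, the ileal bile acid transporter, was 0.886 and became 0.379 without them, and that between Hoxb6 and Scnn1g, a subunit of the epithelial sodium channel, went from -0.793 to 0.04. Hoxb6 against Atp12a went from -0.792 to -0.335. Hoxb13 and Hoxb6 themselves had r = -0.668 (permutation p = 0.021, adjusted 0.0453) and rho = -0.473 (permutation p = 0.145, adjusted 0.213), and r was -0.234 without the pair. Hoxb13 and Hoxa13 had r = 0.746 (adjusted permutation p = 0.017; 0.616 without the pair) and rho = 0.6 (adjusted permutation p = 0.155). Insl5, a peptide hormone of colonic L cells, had r = 0.835 with Hoxb13 (adjusted permutation p = 0.00497; 0.715 without the pair) but rho = 0.745 (adjusted permutation p = 0.0759). No group of samples sharing a first digit of their name holds 6, so none of these relations could be given within such a group.

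Cdx2, the caudal-type factor that specifies intestine and acts upstream of Hox genes, was 23.7 in Il10-/- replicate 1, 62.7 in Il10-/- Tnfr1-/- replicate 3 and 104 to 258 in the other 9 libraries. The colons with most group 13 transcript were thus the lowest in Cdx2. The other tested caudal gene, Cdx1, did not show this order. It was 190 in Il10-/- replicate 1, the median of that genotype, and 131 in Il10-/- Tnfr1-/- replicate 3. Its lowest value was 115, in Il10-/- Tnfr1-/- replicate 4. Neither gene was picked by the rule for genes described in full, and a link to the Hox values was not tested.

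Non-colonic tissue was looked for in the same libraries. The 10 markers of anal squamous epithelium summed to between 12.4 and 36.2 in Il10-/- and between 9.73 and 16.1 in Il10-/- Tnfr1-/- colons, with 17.7 in Il10-/- replicate 1. Their highest sum was in Il10-/- replicate 3, where Sbsn gave 20.5 and Krt10 9.95. Il10-/- replicate 1 was instead the highest library for 4 of the 10, namely Krt14 at 6.79 (at most 3.07 elsewhere), Krt13 at 2.93 (at most 0.283 elsewhere), Krt6a at 0.488 (at most 0.216 elsewhere) and Dsg3 at 0.0402 (at most 0.0136 elsewhere). In Il10-/- Tnfr1-/- replicate 3, the next in Hoxd13, Krt14 was 2.56 and Krt13 0.132. The 4 urothelial markers summed to 4.06 in Il10-/- replicate 1, the lowest of all 11 libraries. None of these 14 genes was at 0 in all libraries, and their part in the Hox values was not tested.

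The genotypes were then compared. Tnfrsf1a checked the labels: Il10-/- colons had 47.9 ± 18.5 (SD, n = 5), and those with the receptor gene targeted had 14.8 ± 2.34 (SD, n = 6), with no overlap (exact permutation p = 0.00216, the smallest that 462 assignments can give). Il10, targeted in every mouse, still gave transcript signal, 15.3 ± 6.44 (SD, n = 5) and 5.14 ± 1.56 (SD, n = 6), also without overlap (exact permutation p = 0.00216).

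By limma with Benjamini-Hochberg adjustment over 13561 genes, 0 Hox genes passed 0.05, and 0 of all genes did (0%). At an unadjusted limma p under 0.05 there were 2 of 26 Hox genes (7.69%) against a background of 8.34%. Both were lower in Il10-/- Tnfr1-/- colons, where the background for lower genes was 3.60% and for higher genes 4.74%. The Hox share is thus close to that of all genes and is not a result about Hox genes. None of the 26 was without overlap between the genotypes, against 0.265% of all genes without overlap and lower and 0.310% without overlap and higher.

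Those 2 genes were neighbours in HoxA. Hoxa7, a central patterning gene, was 30.3, 33.2, 66.2, 72.1 and 50.4 in Il10-/- replicates 1, 2, 3, 5 and 6, and in Il10-/- Tnfr1-/- colons it ran from 15.5 over a median of 27.2 to 42.3. The log2 difference was -0.86 ± 0.31 (SE), with a limma p of 0.0177, adjusted p of 0.536, and an exact permutation p of 0.0433. Hoxa9, which is also a regulator of blood progenitors, was 49.7, 36.4, 51.9, 81.3 and 30.0 in Il10-/- colons and from 15.9 over a median of 24.0 to 57.7 in Il10-/- Tnfr1-/- colons. Its log2 difference was -0.86 ± 0.33 (SE), with a limma p of 0.0232, adjusted p of 0.536, and an exact permutation p of 0.0476. Both genes had their lowest values in Il10-/- Tnfr1-/- replicates 2 and 4, and both overlapped between the genotypes.

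The abundance of these genes is an estimate over several transcripts, 5 each for Hoxa7 and Hoxa9 and 4 for the next gene, Hoxa10. Hoxa10 had a log2 difference of -0.62 ± 0.29 (SE, limma adjusted p = 0.536). Of its summed abundance, 73.97% was assigned to a processed transcript without a coding class, and with protein-coding transcripts alone the difference was 0.01. For Hoxa7 and Hoxa9 the same restriction gave -0.95 and -1.06. In the authors' deposited table, 4 of the 56 Hox transcripts with a p-value had one under 0.05 (7.14%), against 6.83% of 43192 transcripts in that table, and the smallest q-value of any was 0.684.

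The largest fitted difference was that of Hoxb13, at -2.01 ± 1.25 (SE, limma adjusted p = 0.538, exact permutation p = 0.203), and the value was -1.33 without Il10-/- replicate 1 and -2.72 without Il10-/- Tnfr1-/- replicate 3. Hoxa13 differed by -1.02 ± 0.67 (SE, limma adjusted p = 0.548), and by -0.47 without Il10-/- Tnfr1-/- replicate 6. For Hoxd13, under the filter, the mean log2 difference of -0.56 had an exact permutation p of 0.764. None of these group 13 differences exceeds the spread within the genotypes.

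Hoxb2 and Hoxb3, anterior genes best known from the hindbrain, had the smallest p among genes with a positive difference. Hoxb2 was 0.554, 1.71, 7.65, 0.427 and 0.532 in Il10-/- replicates 1, 2, 3, 5 and 6, and 2.10 to 6.63 in Il10-/- Tnfr1-/- colons with a median of 3.14. The genotypes overlapped through Il10-/- replicate 3, the highest of all. The log2 difference was 1.04 ± 0.52 (SE, limma adjusted p = 0.536). It was 1.58 without Il10-/- replicate 3, 0.14 with a smooth muscle score as a covariate and -0.03 within the samples whose name starts with 1. Those are 3 Il10-/- and 2 Il10-/- Tnfr1-/- colons; names starting with 2 or 3 are all Il10-/- Tnfr1-/- and those with 4 all Il10-/-, so outside the first set this digit, whose meaning the labels do not give, and genotype cannot be told apart. Hoxb3 differed by 0.91 ± 0.48 (SE, limma adjusted p = 0.536) and by 0.45 without Il10-/- replicate 1.

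The remaining most abundant genes of their classes gave differences within 2 standard errors of 0. These were -0.28 ± 0.44 for Hoxa5, 0.36 ± 0.62 for Hoxb5, 0.83 ± 1.00 for Hoxb6, 0.34 ± 0.27 for Hoxb9, -0.18 ± 0.72 for Hoxd4 and 0.70 ± 0.47 for Hoxd8 (all SE), with limma adjusted p between 0.552 and 0.916. Hoxa5 turned to 0.16 without Il10-/- replicate 3, where it was 56.7 against 7.84 to 21.2 in the other libraries. Without Il10-/- replicate 1, Hoxb5 turned to -0.30 and Hoxb6 to -0.08, Hoxb9 was 0.09 and Hoxd8 0.35.

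By cluster, 9 of 10 tested HoxA genes were lower in Il10-/- Tnfr1-/- colons (median log2 difference -0.42), and 8 of 9 HoxB genes were higher (median 0.83). HoxD had 5 of 7 identifiers higher (median 0.07), and turned to 2 of 7 under quantile normalization. It had 1 of 7 higher without Il10-/- Tnfr1-/- replicate 4 (median -0.10), and 3 of 7 without Il10-/- replicate 5 or with the smooth muscle covariate. With equal totals it had 6 of 7 higher. Hoxd4 counts 2 times among these, at -0.18 and 0.07. The median over all 13561 genes was 0.05, and 55.5% of them were higher. That share was 69.7% with equal totals and 48.0% with quantile normalization. These counts are a description, since the genes were read in the same 11 colons and are not independent. Without Il10-/- replicate 1, HoxB had 5 of 9 genes higher and a median of 0.09, while HoxA had 10 of 10 lower and a median of -0.54. Without both Il10-/- replicate 1 and Il10-/- Tnfr1-/- replicate 3, HoxB had 7 of 9 higher with a median of 0.56. Without Il10-/- Tnfr1-/- replicate 6, the HoxA median was -0.21, with 9 of 10 lower. The size of both cluster medians thus moved with single libraries.

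**Figure D5:**
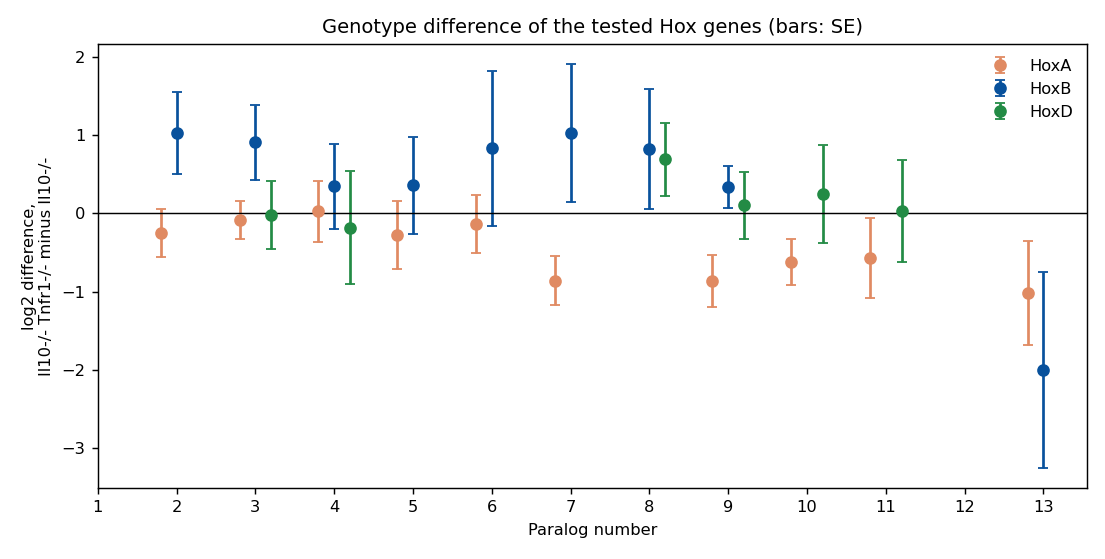
Log2 difference (Il10-/- Tnfr1-/- minus Il10-/-) of the tested Hox genes against paralog number, coloured by cluster, with bars of 1 SE; Hoxd4 is shown under its main identifier. HoxA points lie mostly below 0 and HoxB points other than Hoxb13 above it, and Hoxa7 and Hoxa9 have the shortest bars relative to their distance from 0.

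Partners and regulators of Hox proteins were read from the same model. Over all tested genes, 8.34% had an unadjusted limma p under 0.05, 4.74% higher and 3.60% lower. At any p, 55.5% were higher. The lists below are short. Of 7 tested TALE genes, whose products bind DNA with Hox proteins, 6 were higher in Il10-/- Tnfr1-/- colons and 3 of them had an unadjusted limma p under 0.05. Meis2 differed by 1.32 ± 0.54 (SE, limma adjusted p = 0.536). Its highest values were 16.8 and 12.0, in Il10-/- Tnfr1-/- replicates 4 and 3. Among 7 tested upstream regulators (among them retinoid and caudal genes), 2 had a p under 0.05: Aldh1a1, a retinal dehydrogenase, at 1.05 ± 0.38 and Rarg, a retinoic acid receptor, at 0.51 ± 0.18 (SE, limma adjusted p = 0.536 for both). The 19 tested identifiers of Polycomb and trithorax genes, which hold Hox clusters off or on, had a median of 0.03, and 2 with a p under 0.05 (Rnf2 at 0.77 ± 0.31 and Bmi1 at 0.74 ± 0.32, SE, limma adjusted p = 0.536). They stand for 18 genes, since Men1 counts 2 times with the same values. None of these genes passed the adjusted threshold.

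Of 26 listed noncoding and flanking genes of the clusters, 7 had values and 19 were not analysed here. Skap2, next to HoxA, had a log2 difference of -1.05 ± 0.32 (SE, limma adjusted p = 0.536), and Mtx2, next to HoxD, one of 0.33 ± 0.20 (SE, limma adjusted p = 0.536).

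Markers of cell type were read from the same model, and none passed the adjusted threshold between genotypes. All 10 smooth muscle genes were higher in Il10-/- Tnfr1-/- colons, 9 of them at an unadjusted limma p under 0.05, with a median log2 difference of 1.79. Of all tested genes, 55.5% were higher, and 4.74% were higher at that p. The 10 genes were read in the same colons and are not independent. Their summed level ran from 185 to 3506 in Il10-/- and from 829.01 to 8021 in Il10-/- Tnfr1-/- colons, and none was at 0 in all libraries. Actg2, enteric smooth muscle actin, differed by 2.57 ± 0.92 and Synpo2 by 1.75 ± 0.65 (SE, limma adjusted p = 0.536 for both). With a smooth muscle score as a covariate, Hoxa7 was -0.87, Hoxa9 -1.03 and Hoxa10 -0.93. The same covariate moved Hoxa5 to -0.93, Hoxa13 to -1.86, Hoxb6 to 1.96 and Hoxb2 from 1.04 to 0.14, so the fitted values of several Hox genes depend on it.

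The other lists passed no adjusted threshold either. At an unadjusted limma p under 0.05, the background was 4.74% for higher and 3.60% for lower genes. At any p, 55.5% of all tested genes were higher. All 9 fibroblast identifiers were higher (2 with an unadjusted limma p under 0.05, Pdgfra at 0.76 and Dcn at 1.83). They stand for 8 genes, since Pdpn counts 2 times with the same values. Of 9 neuron and glia genes 8 were higher (Tubb3 at 1.80), with Ret at -1.36 the exception. Of 9 epithelial genes 8 were lower, 0 of them at an unadjusted limma p under 0.05 (Lgals4 at -0.51, Cldn7 at -0.47). The 6 tested distal colon genes were all lower, 2 at an unadjusted limma p under 0.05 (Ly6g at -3.00, Scnn1b at -0.72), and of the proximal pair Cyp2c55 was at 2.83 and Aqp4 at -0.59. The 4 ileal genes included Apoa4 at 1.46 and Fabp6 at -0.75. Among the tested squamous, skeletal muscle, urothelial and leukocyte genes, Krt14 was at -0.89, Krt10 at -0.28, Ckm at 2.13, Acta1 at 0.62, Upk1a at -0.07, Ptprc at 0.97 and Lyz2 at 1.10. No adipocyte gene passed the filter, and their sum was 17.3 in Il10-/- Tnfr1-/- replicate 4 and at most 0.607 elsewhere. Values of these lists differed between single colons, and none of their genes passed the adjusted threshold between genotypes. Their part in the Hox differences, other than the smooth muscle score, was not tested.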

How the data were processed

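Transcript abundances in 11 mouse colons were analysed. CASAVA, kallisto and sleuth are named in the submitters' processing notes, without versions, with build mm10, and settings are not given in the sources used here. Each deposited signal value is length-divided and scaled by the authors, and libraries sum to between 804109 and 1378971, so depth is unknown. The p-value, q-value and log2 fold columns come from the authors, per the file headers. Of 12 samples, 1 (Il10-/- replicate 4) had no column, and 1 per-sample column matched no sample; neither was used. The 866 repeated rows were dropped and 113193 transcripts summed to 35688 genes.

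Genes over 1 in at least 5 samples were tested with limma (3.58.1, R 4.3.3, trend and robust) on log2(value + 0.5), two-sided, Benjamini-Hochberg at 0.05, direction Il10-/- Tnfr1-/- minus Il10-/-. Fold differences on this scale understate low genes. Single values were tested by exact permutation over 462 assignments, and correlations by 100000 resamples, with adjustment over 28 pairs (of 8 planned, 4 were left out for a gene under the filter or not analysed here; 24 were added after seeing the data). The model was tested on simulated data. Members and lists were chosen with earlier results of these data known. Genes described in full are those of paralog groups 12 and 13, the most abundant of each cluster and position class, the 6 tested Hox genes of smallest p and 2 of each other list; a few genes the rule covers are not reported here. Coordinates and transcript classes came from GENCODE M21, start sequences from RefSeq. Replicate numbers follow sample order and pair nothing. Alternatives changed the filter, pseudocount, scaling, moderation, transcript class, samples and covariates.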

Additional observations from a re-analysis of the deposited data

Results flagged for a closer look

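Values of named Hox genes, Tnfrsf1a and Il10 were split by genotype into 34 groups. In 6 of them, all of Hox genes, the gap of a colon to its nearest neighbour, relative to the group's range, passed Dixon's 95% critical value. Chance flags about 1 in 20 independent groups, and these groups share colons and are not independent. Il10-/- replicate 1 gave 4 of them. It was high for Hoxd13 at 56.0, where the other 4 Il10-/- colons reached at most 0.208, and for Hoxd12 at 2.17, where the other 4 were listed at 0. It was low for Hoxb6 at 0.373, against 14.1 to 36.8 in the others, and for Hoxd4 at 0.291, against 8.98 to 15.1. Hoxd12 was under the filter, and with the other 4 at 0 any value above 0 would have been flagged.

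The remaining pair were Il10-/- Tnfr1-/- colons. Replicate 4 was high for Hoxb2 at 6.63, against 2.10 to 3.25 in the other 5, and replicate 3 was low for Hoxb3 at 3.46, against 8.22 to 12.8.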

How the results depend on the processing

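No Hox gene passed the adjusted threshold under any alternative run. Over all genes, 1 passed under quantile normalization and 2 without Il10-/- replicate 2; Tnfrsf1a, at -1.58 and -1.74, passed in both, and was -1.41 without Il10-/- replicate 1. Hox genes at an unadjusted limma p under 0.05 numbered 1 with equal totals, among names starting with 1, and with the first digit as covariate, 6 with the smooth muscle covariate (23.1%, against 4.58% of all genes) and 6 without Il10-/- replicate 1 and Il10-/- Tnfr1-/- replicate 3 (added after seeing the data; 23.1%, against 13.1%). Leaving out 1 replicate gave 0 (Il10-/- replicate 5) to 7 (Il10-/- Tnfr1-/- replicate 3; 26.9% of Hox genes, 5 of them lower, against 6.09% of all genes), with 4 without Il10-/- replicate 2 and 1 without Il10-/- Tnfr1-/- replicate 2 or 4. The same count over all genes, 1131, became 149, 243, 621 and 1775 for the names starting with 1, the digit covariate, the smooth muscle covariate and the pair left out, and ran from 488 (without Il10-/- replicate 6) to 2475 (without Il10-/- replicate 1), with 1744 without Il10-/- replicate 2. Names starting with 1 and the digit covariate rest on the same 5 colons, since other digits hold 1 genotype each. Fewer samples enter when replicates or names are left out; other causes were not tested.

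Signs turned for Hoxa10 (0.012, protein-coding transcripts), Hoxa5 (0.16, without Il10-/- replicate 3; -0.60 with Il10-/- replicate 1 and Il10-/- Tnfr1-/- replicate 3 left out), Hoxb2 (-0.028, names starting with 1 and digit covariate), Hoxb5 (-0.30 without Il10-/- replicate 1, -0.16 with Il10-/- Tnfr1-/- replicate 3 also left out, 0.82 without Il10-/- replicate 3) and Hoxb6 (-0.082 without Il10-/- replicate 1, 1.47 without Il10-/- Tnfr1-/- replicate 3). Hoxd4 turned in 6 settings: 0.84 among names starting with 1 and with the digit covariate, 0.31 with the smooth muscle covariate, and 0.01, 0.12 and 0.16 without Il10-/- replicate 5, Il10-/- replicate 6 and Il10-/- Tnfr1-/- replicate 3; it was -0.96 without Il10-/- replicate 1. Hoxa7 stayed between -1.13 and -0.71 and Hoxa9 between -1.09 and -0.67 in all 24 alternatives. The posterior minus anterior difference ranged from -0.87 to -0.09.

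Scaling moved the balance of unadjusted calls: 643 higher and 488 lower as deposited, 693 and 229 with equal totals, 489 and 723 with median-ratio size factors, 542 and 769 with quantile normalization. The median of all genes was 0.19 with equal totals and 0.05 as deposited. No paired analysis was possible because replicate numbers follow sample order. With depth unknown, the counting error of low genes such as HoxC cannot be estimated.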
